A study of Mus musculus with 10 samples.

Results

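The 9 genes described here encode subunits of canonical Polycomb repressive complex 1 (PRC1) that set it apart from the variant complexes: the chromobox genes Cbx2, Cbx6, Cbx7 and Cbx8, the Polyhomeotic genes Phc1, Phc2 and Phc3, and the PCGF genes Pcgf2 and Bmi1. They were taken by symbol from a table of read counts for 36191 mouse gene IDs, and each symbol matched 1 ID: ENSMUSG00000025577 (Cbx2), ENSMUSG00000089715 (Cbx6), ENSMUSG00000053411 (Cbx7), ENSMUSG00000025578 (Cbx8), ENSMUSG00000040669 (Phc1), ENSMUSG00000028796 (Phc2), ENSMUSG00000037652 (Phc3), ENSMUSG00000018537 (Pcgf2) and ENSMUSG00000026739 (Bmi1). Their RNA was measured by RNA-seq in wild type mouse embryonic stem (ES) cells and in cells labelled Rybp null mutant, both of strain background 129x1 x 129S1. Day 0 is ES cells kept with leukemia inhibitory factor, with 1 library for each genotype. Days 8 and 14 are whole cultures differentiated toward the heart through embryoid bodies grown in hanging drops, with 2 libraries for each genotype at each day. The sources used here do not say whether the null line is a single clone or how its allele was made. Nothing in the labels says that replicates came from separate cultures, so the p-values measure only the spread between these libraries.

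Canonical PRC1 joins a RING1 ubiquitin ligase to a chromobox protein, whose chromodomain binds the histone methylation laid down by PRC2, and to a Polyhomeotic protein, whose SAM domain lets complexes polymerise and compact chromatin. A PCGF2 or BMI1 protein completes the core. RYBP, the protein lost in the null cells, occupies on RING1 the place that a chromobox protein takes in the canonical complex, so RYBP and chromobox subunits occur in separate complexes. CBX7 is known as the main Polycomb chromobox protein of ES cells, and CBX2 and CBX8 are known to take its place on differentiation.

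The promoters of these genes are shown first, as a description of their sequence. Of the members with a window, Phc1 and Cbx7 lacked a motif that 6 other members hold. RefSeq (GRCm38.p6) gave windows of 250 bases before an annotated start for 8 of the 9 genes, 10 windows in all. No window matched Cbx2. The letters CACGTG, which read the same on both strands and hold a single CpG, occurred in 6 of the 10 windows, those of 6 genes. Phc2 had 3 windows, and its windows 2 and 3 lacked these letters, like the windows of Phc1 and Cbx7. Of all 32851 windows of the same length, 6.02% held them, as did 9.09% of the windows with a CpG count above the median of 6. The motif was picked after the member sequences had been read, so its count, and which members lack it, are a description only. Pcgf2, which holds it, also fell by day 8 in wild type, a call lost in 4 of 16 alternatives. A link between the motif and RNA levels was not tested. Each line gives 30 bases, 5′ to 3′ on the strand of the gene, with CACGTG in capitals.
Cbx6, chr15:79834342-79834371, minus strand: ggcccggagcatCACGTGacggcccgcagc
Cbx8, chr11:119040994-119041023, minus strand: cgtcgttagcaaCACGTGgggcgggaggaa
Phc2, chr4:128654633-128654662, plus strand: ggctggagtgggCACGTGacactctccggt
Phc3, chr3:30969480-30969509, minus strand: agtcgctggcctCACGTGacctctgcgccc
Pcgf2, chr11:97699768-97699797, minus strand: aaggaatgaggtCACGTGggtgagtagtgg
Bmi1, chr2:18676791-18676820, plus strand: gaatgaggggagCACGTGacccggcggggg
The first base of the motif lay 26 bases before the start in Cbx6, 57 in Phc2, 82 in Phc3, 98 in Cbx8, 137 in Pcgf2 and 215 in Bmi1.

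Like most of all windows, those of Phc1 and Cbx7, the members whose RNA fell most by day 8, held no CACGTG. They are printed whole, with CpG in capitals, because these members moved together while their windows differ in CpG content. The Cbx7 window had 23 CpG sites and a GC content of 64.8%, and 88.0% of all windows had as many or fewer. The Phc1 window had 8 CpG sites and a GC content of 49.6%, and 59.7% of all windows had as many or fewer.
Phc1, chr6:122340228-122340477, minus strand: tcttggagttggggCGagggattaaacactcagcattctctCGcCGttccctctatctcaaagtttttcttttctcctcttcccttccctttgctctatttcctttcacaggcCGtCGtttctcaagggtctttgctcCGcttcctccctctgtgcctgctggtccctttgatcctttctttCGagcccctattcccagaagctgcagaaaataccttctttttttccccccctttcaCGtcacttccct
Cbx7, chr15:79932647-79932896, minus strand: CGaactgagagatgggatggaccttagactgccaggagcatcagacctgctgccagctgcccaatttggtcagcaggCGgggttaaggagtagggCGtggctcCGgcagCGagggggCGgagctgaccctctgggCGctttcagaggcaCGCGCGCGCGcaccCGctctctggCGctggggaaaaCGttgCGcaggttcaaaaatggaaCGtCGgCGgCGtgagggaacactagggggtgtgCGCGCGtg

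Counts per library totalled 3028153 to 6890792, so a level of 1 CPM, meaning reads of the gene scaled to equal library totals, stood for 3 to 7 reads. All 9 members passed the filter on low counts, among 15819 genes tested. Rybp checked the labels: its level was 20.4 to 67.6 CPM in the 5 wild type libraries and 0.297 to 1.21 CPM in the 5 null libraries. The summed level of 8 ES cell markers was 5710 CPM in wild type and 9590 CPM in null ES cells and 30.9 to 131 CPM in all later libraries. The summed level of 9 cardiomyocyte markers was 2200 to 2720 CPM in wild type and 74.9 to 124 CPM in null cultures at day 8, where Myl7 and Nkx2-5 were at 0 in both null libraries. At day 14 that sum was 951 to 1090 CPM in wild type and 201 to 264 CPM in null cultures, where Nkx2-5 was at 0; it had at most 1 read in any wild type library. These are bulk libraries, in which fewer cells of a type and less RNA per cell cannot be told apart.

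In ES cells a single gene led each subfamily. Per kilobase of exon, the scale used for every comparison between genes, Phc1 stood highest of the 9 members at 88.9 CPM per kb in wild type and 74.0 in null ES cells. Pcgf2 followed at 35.2 and 24.2 CPM per kb, and Cbx7 at 9.87 and 9.17. The other 6 members lay at 2.21 CPM per kb or lower in wild type and at 0.886 or lower in null ES cells. At day 0 no spread is known, so the order is that of single libraries.

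**Figure D1:**
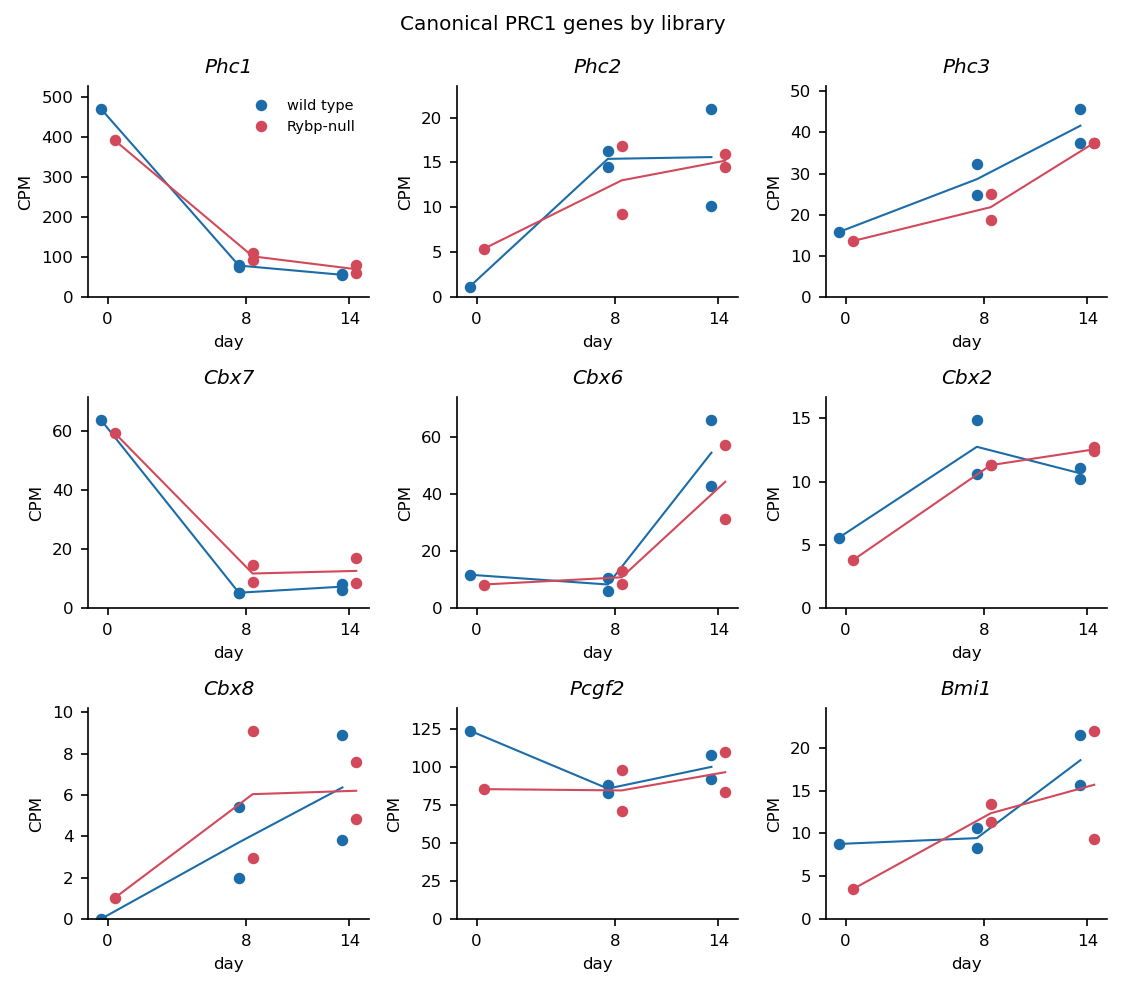
Level of each canonical PRC1 gene in CPM (vertical axis, from 0, with its own scale in each panel) against day of differentiation. Points are single libraries, wild type in blue and Rybp-null in red, drawn slightly to either side of their day, and lines join group means. Phc1 and Cbx7 are high at day 0 alone, and Cbx6 is high at day 14 alone.

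By day 8 the order had changed. In wild type cultures Pcgf2 led at 24.3 ± 1.05 CPM per kb (SD, n = 2), above Phc1 at 14.9 ± 0.64, and the replicates of these genes did not overlap. Cbx2 at 2.99, Bmi1 at 2.37 and Phc2 at 2.18 CPM per kb came next, and each overlapped its neighbour in this order. In null cultures Pcgf2 at 24.0 and Phc1 at 19.2 CPM per kb overlapped. At day 14 Pcgf2 and Phc1 again led, at 28.3 and 10.5 CPM per kb in wild type and 27.4 and 13.1 in null cultures. Cbx6 came next in both genotypes, at 5.14 and 4.18 CPM per kb, and overlapped Bmi1 at 4.67 and 3.95.

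The makeup of each subfamily was read as the share of each gene in the CPM per kb summed over the members of that subfamily. Cbx7 held 80.4% of the sum of Cbx2, Cbx6, Cbx7 and Cbx8 in wild type and 82.5% in null ES cells. At day 8 its share was 18.5% and 11.7% in the wild type libraries and 17.7% and 34.4% in the null libraries. Cbx2 then held the largest share, 56.5% and 51.7% in wild type and 34.3% and 40.7% in null cultures. At day 14 Cbx6 held 45.1% and 51.8% in wild type. In the null libraries of day 14 it held 30%, beside 30.2% for Cbx2, and 46.2%. The lead thus passed from Cbx7 to Cbx2 and then to Cbx6 in wild type, also as shares of plain counts, without division by length. In null cultures the lead depended on that scale. As shares of plain counts, Cbx6 with 30.7% stood above Cbx2 with 26.7% in null replicate 1 of day 8, and Cbx7 with 38.9% above Cbx2 with 30.2% in replicate 2. In null replicate 1 of day 14 Cbx6 then held 47.7% and Cbx2 19.3%.

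The sum of these 4 genes was 12.3 and 11.1 CPM per kb in wild type and null ES cells, 4.4 to 7.73 at day 8 and 8.98 to 12 at day 14. It was thus lower in all libraries of day 8 than in those of ES cells and day 14. The Polyhomeotic sum behaved otherwise: it was 90.0 and 75.5 CPM per kb in ES cells and 14.7 to 24.2 in every later library. Phc1 held 98.8% and 98.0% of it in ES cells and still 66.8% to 86.6% later. As shares of plain counts Phc1 held less, 96.5% and 95.4% in ES cells and 48.3% to 75.5% later. In wild type replicate 1 of day 14 Phc3 then held 40.7%, beside 50.3% for Phc1. Of the sum of Pcgf2 and Bmi1, Pcgf2 held 94.1% in wild type ES cells and the larger part in every library. Levels per kb assume the exon length of the GENCODE vM21 annotation for each gene, whatever transcripts the cells used.

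**Figure D2:**
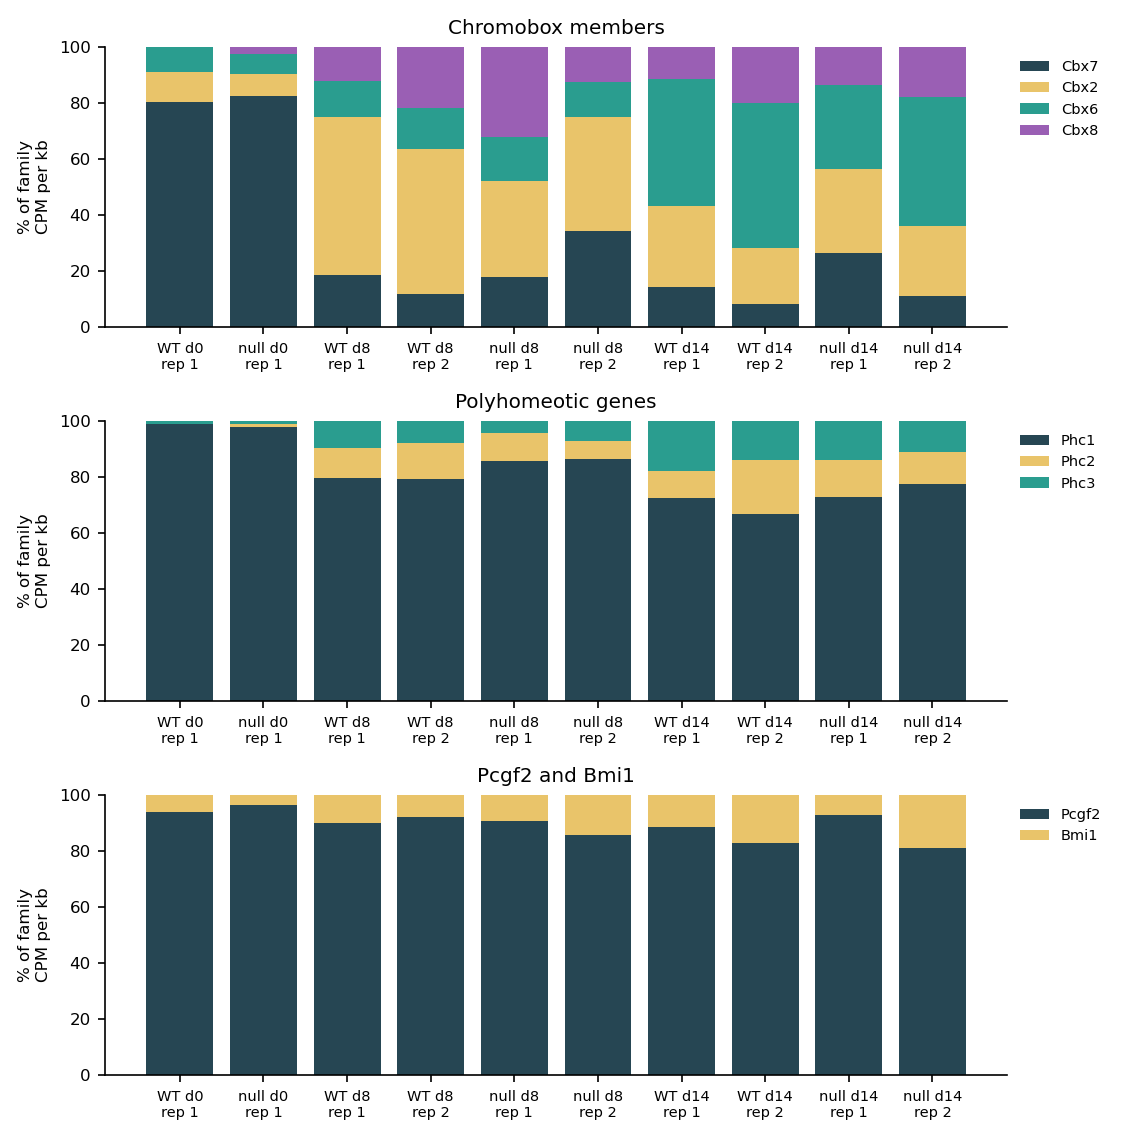
Share of each paralog, in percent of the summed CPM per kb of its family (vertical axes, 0 to 100%), in each of the 10 libraries, named by genotype, day and replicate. Bars are single libraries, so they carry no error. Cbx7 takes 80.4% and 82.5% of the chromobox bars at day 0 and at most 34.4% later, while Phc1 remains the largest part of every Polyhomeotic bar.

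Between day 0 and day 8 the Polyhomeotic gene of ES cells fell in both genotypes. Phc1 stood at 471 CPM in the wild type ES cell library, at 81.2 and 76.4 CPM at day 8 and at 56.6 and 54.6 CPM at day 14. In null cells it stood at 392 CPM, then 110 and 93.6, then 59.5 and 79.7 CPM. Every later library lay far below the ES cell library of its genotype. The log2 fold change from day 0 to day 8 was -2.79 (SE 0.23, adjusted p = 2.22e-06, edgeR quasi-likelihood test) in wild type and -2.18 (SE 0.22, adjusted p = 1.47e-05) in null cells.

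Phc2, a Polyhomeotic paralog with broad expression, was scarce in wild type ES cells. It had 4 reads there (1.17 CPM) and 37 reads (5.37 CPM) in the null ES cell library. At day 8 it stood at 14.5 and 16.3 CPM in wild type and 16.8 and 9.21 CPM in null cultures, and at day 14 at 10.2, 21.0, 14.5 and 15.9 CPM in the same order. The later levels overlapped between genotypes while the ES cell levels were apart. Phc2 rose by day 8 in wild type, with a ratio of pooled CPM of 13.2 (95% counting interval 5.01 to 49.5) and an adjusted p of 0.00301. In null cells its log2 fold change was 1.05 (SE 0.53, adjusted p = 0.14), which became 0.0493 without null replicate 2 of day 8. The difference between these changes was -2.43 (SE 0.95, adjusted p = 0.465), so a different response of the genotypes was not shown.

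Phc3, the remaining paralog, passed no test. It stood at 15.8 CPM in wild type ES cells, 32.4 and 24.9 CPM at day 8 and 45.8 and 37.5 CPM at day 14, and at 13.6, then 18.7 and 25.0, then 37.5 and 37.5 CPM in null cells. The libraries of day 14 lay above those of day 8 in both genotypes without overlap, an order that was not counted over all genes. The log2 fold change from day 8 to day 14 was 0.52 (SE 0.26, adjusted p = 0.348) in wild type and 0.74 (SE 0.26, adjusted p = 0.118) in null cultures.

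Among the chromobox genes Cbx7 fell most. Its level was 64.0 CPM in wild type ES cells, 5.28 and 5.15 CPM at day 8 and 8.27 and 6.30 CPM at day 14. In null cells it was 59.5 CPM, then 8.88 and 14.6, then 16.9 and 8.35 CPM. The ES cell libraries differed by less than their counting error. After day 0 every null library lay above every wild type library, an order that 4.44% of all genes tested showed after TMM scaling. The gap was narrow: the lowest null library had 8.35 CPM (33 reads) and the highest wild type library 8.27 CPM (26 reads). The log2 fold change to day 8 was -3.82 (SE 0.42, adjusted p = 2.56e-05) in wild type and -2.60 (SE 0.39, adjusted p = 0.000257) in null cells. The difference between these changes was 1.22 (SE 0.60, adjusted p = 0.599).

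Cbx7 shares exon bases with another gene. In the GENCODE vM21 annotation 100 of its exon bases, 1.5%, are shared with Apobec3, an antiviral cytidine deaminase gene on the opposite strand, and no source used here gives the strand setting of the count. Apobec3 itself stood at 108 CPM in wild type and 58.0 CPM in null ES cells and at 5.61 to 12.4 CPM in all later libraries, a course like that of Cbx7. Its log2 fold change to day 8 was -4.25 (SE 0.32, adjusted p = 1.27e-06) in wild type. Reads of the shared bases cannot be assigned to either gene from the table, and their part in the Cbx7 values was not tested.

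Cbx2 and Cbx8, chromobox genes linked to differentiated cells, were low in ES cells. Cbx2 stood at 5.56 CPM in wild type ES cells, 10.6 and 14.9 CPM at day 8 and 11.1 and 10.2 CPM at day 14, and at 3.77, then 11.3 and 11.3, then 12.7 and 12.4 CPM in null cells. It rose by day 8 in null cells by 1.34 on the log2 scale (SE 0.45, adjusted p = 0.0346), and in wild type the change was 0.99 (SE 0.47, adjusted p = 0.109). The call in null cells was lost in 7 of 16 alternatives, with DESeq2 giving the highest adjusted p, 0.144. Leaving out single libraries took it to 0.0709 (null replicate 1 of day 8), 0.051 (null replicate 2 of day 8), 0.0518 and 0.0512 (wild type replicates 1 and 2 of day 14, through the shared estimate of spread).

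Cbx8 had 0 reads in the wild type ES cell library, where 3 reads, or 0.877 CPM, is the level that a count of 0 allows. It had 7 reads (1.02 CPM) in null ES cells. At day 8 it stood at 1.98 and 5.44 CPM in wild type and 9.12 and 2.97 CPM in null cultures, and at day 14 at 3.82, 8.92, 4.83 and 7.59 CPM. Its replicates differed widely and the genotypes overlapped at both days. In wild type Cbx8 rose by day 8 (adjusted p = 0.0299), to 4.37 times the level that 3 counts over the day 0 library would give. The exact 95% counting interval of this ratio has a lower limit of 3.3. Without wild type replicate 2 of day 8 the adjusted p was 0.105. In null cells the ratio was 6.27 (95% counting interval 2.82 to 16.4), with an adjusted p of 0.0733, which became 0.0235 without null replicate 2 of day 8, 0.0229 without a filter on low counts and 0.0312 with only the groups compared.

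By day 8 the PCGF genes moved less than Cbx7 and Phc1. Pcgf2, also called Mel18, stood at 124 CPM in wild type ES cells, 83.2 and 88.5 CPM at day 8 and 108 and 92.3 CPM at day 14, and at 85.5, then 98.0 and 71.3, then 110 and 83.3 CPM in null cells. The wild type ES cell library was the highest of the 10. Pcgf2 fell by day 8 in wild type by 0.74 on the log2 scale (SE 0.26, adjusted p = 0.0358), and in null cells the change was -0.25 (SE 0.26, adjusted p = 0.48). The wild type call was lost without wild type replicate 1 or 2 of day 8 (adjusted p = 0.141 and 0.0915) and without replicate 1 or 2 of day 14 (0.0535 and 0.0538).

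Bmi1, the PCGF paralog known for stem cell renewal and for repressing the Ink4a locus, was lowest in null ES cells. It stood at 8.77 CPM in wild type ES cells, 10.6 and 8.30 CPM at day 8 and 15.6 and 21.5 CPM at day 14, and at 3.48, then 11.3 and 13.4, then 9.36 and 22.0 CPM in null cells. In null cells it rose by day 8 by 1.57 on the log2 scale (SE 0.57, adjusted p = 0.0445), while in wild type the change was -0.11 (SE 0.55, adjusted p = 0.893). The call was lost in 8 of 16 alternatives, with DESeq2 giving the highest adjusted p, 0.0932. Without null replicate 1 or 2 of day 8 the adjusted p was 0.062 and 0.083, without wild type replicate 1 or 2 of day 8 it was 0.0598 each, and without wild type replicate 1 or 2 of day 14 it was 0.0581 and 0.0602. The difference between the changes was 1.68 (SE 0.78, adjusted p = 0.565).

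Of the 9 members, 2 rose and 3 fell between day 0 and day 8 in wild type, and 2 rose and 2 fell in null cells. Of all genes tested, 21.2% rose and 19.3% fell in wild type, and 19.0% rose and 18.6% fell in null cells, so the members' share called is near that of all genes. The median log2 fold change of the members was -0.11 in wild type and 0.43 in null cells, beside 0.13 and 0.04 over all genes. Cbx7 and Phc1 were called in both genotypes. The ES cell marker sum dropped over the same interval, and its part in these falls was not tested.

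**Figure D3:**
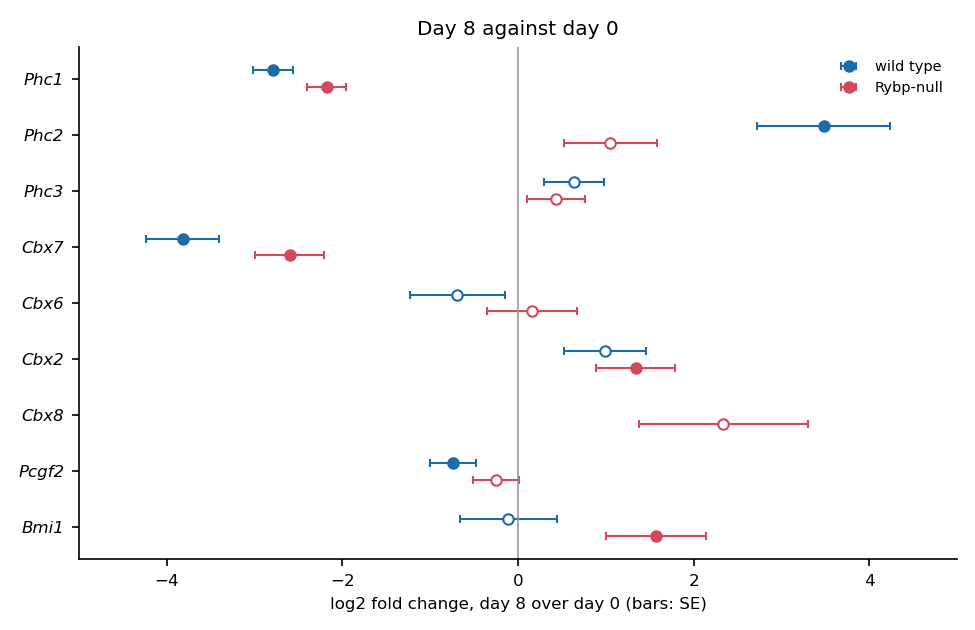
Log2 fold change from day 0 to day 8 (horizontal axis) of each canonical PRC1 gene in wild type (blue) and Rybp-null cells (red), with bars for the SE implied by the test. Filled points have an adjusted p under 0.05 and open points do not, and Cbx8 in wild type is left out because it had 0 reads at day 0. Phc1 and Cbx7 lie well below 0 in both genotypes.

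Cbx6 was the member that moved between days 8 and 14. It stood at 11.7 CPM in wild type ES cells, 5.94 and 10.6 CPM at day 8 and 42.9 and 66.1 CPM at day 14, and at 8.27, then 13.0 and 8.61, then 31.4 and 57.2 CPM in null cells. All 4 libraries of day 14 lay above all others, and how many of all genes show this order was not counted. Cbx6 rose by 2.69 on the log2 scale (SE 0.42, adjusted p = 0.00426) in wild type and by 1.98 (SE 0.40, adjusted p = 0.0107) in null cultures. Each call rested on its libraries: the adjusted p was 0.0642 without wild type replicate 1 of day 8, 0.0554 without wild type replicate 2 of day 14, 0.0567 without null replicate 2 of day 8 and 0.0919 without null replicate 2 of day 14. From day 0 to day 8 Cbx6 passed no test, with changes of -0.69 (SE 0.54, adjusted p = 0.321) and 0.16 (SE 0.51, adjusted p = 0.836).

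Cbx6 shares 563 exon bases, 5.3%, with Npcd on the same strand in the GENCODE vM21 annotation. Npcd had 71 reads over all 10 libraries, 11 and 30 of them in the wild type libraries of day 14, which were also on average the libraries with the most Cbx6. With these counts the shared bases cannot be assigned, and their part in the Cbx6 values was not tested. Markers of other cell types moved over the same interval, and their part was not tested either. The summed level of 5 fibroblast and mesenchyme markers was 8520 to 10300 CPM at day 8 and 11300 to 11600 CPM at day 14 in wild type, and 4960 to 8700 CPM and then 13300 to 13700 CPM in null cultures. Its members moved both ways: Col1a2 rose and Postn fell in wild type, and Col1a2 and Col3a1 rose and Postn fell in null cultures. Of 5 blood markers, 2 rose and 2 fell in wild type and 3 rose and 2 fell in null cultures. Among them Csf1r, a macrophage receptor, went from 11.5 to 102 CPM (group means) in wild type and from 1.17 to 36.6 CPM in null cultures. The sum of 4 visceral endoderm and liver markers was 56.8 to 78.7 CPM and then 98.9 to 111 CPM in wild type, and 5.52 to 30.9 CPM and then 20 to 64.0 CPM, with overlap, in null cultures.

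Cbx6 was thus 1 of 9 members that rose from day 8 to day 14, and none fell, in each genotype. Of all genes, 2.47% rose and 1.57% fell in wild type, and 4.29% rose and 3.41% fell in null cultures. The other 8 members did not pass, and their log2 changes ran from -0.52 to 0.97 in wild type and from -0.59 to 0.74 in null cultures. Phc1 lay at the lower end in both, at -0.52 (SE 0.20, adjusted p = 0.201) and -0.59 (SE 0.20, adjusted p = 0.0903). It was called in wild type with only the groups compared (adjusted p = 0.0446) and in null cultures in a replicate block with the numbers of day 14 swapped (0.0439). The upper ends were Bmi1 at 0.97 (SE 0.43, adjusted p = 0.277) in wild type and Phc3 in null cultures.

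At day 0 the genotypes could be compared only as single libraries, with intervals that cover counting error alone. Phc2 was 4.59 times as high in null as in wild type ES cells (95% counting interval 1.65 to 17.7). Bmi1 was lower in null cells, at 0.397 of the wild type level (0.222 to 0.702), as was Pcgf2 at 0.688 (0.606 to 0.781). Phc1 stood at 0.832 (0.782 to 0.885) and Cbx7 at 0.929 (0.787 to 1.10) of the wild type level. The interval of Cbx7 includes equal levels, as did those of Cbx2 at 0.679 (0.362 to 1.30), Cbx6 at 0.707 (0.464 to 1.09) and Phc3 at 0.864 (0.612 to 1.23). So did that of Cbx8, with 0 reads in wild type and 7 in null cells, whose lower limit was 0.715.

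No member passed the test between Rybp-null and wild type cultures at day 8 or at day 14. Of all genes 0.506% were called higher and 0.759% lower at day 8, and 0.259% higher and 0.354% lower at day 14. The members' count of 0 is near these shares. The median log2 fold change of the members was 0.39 at day 8 and -0.06 at day 14, beside 0.01 and -0.01 over all genes. A single member, Cbx7, had an unadjusted p under 0.05 at day 8, and none did at day 14.

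Cbx7 had the largest genotype difference of the 9 at both days. Its counts over these days were low, at 16 to 26 reads per wild type library and 33 to 56 per null library. At day 8 its log2 fold change, null against wild type, was 1.16 (SE 0.41, adjusted p = 0.217). At day 14 it was 0.76 (SE 0.39, adjusted p = 0.442). After TMM scaling the 4 null libraries stood at 8.16 to 15.8 CPM and the 4 wild type libraries at 5.07 to 7.91 CPM, without overlap; 4.44% of all genes tested showed the same order. Averaged over both days, a contrast added after these values had been seen, the difference was 0.96 (SE 0.28, adjusted p = 0.0736), when 2.33% of all genes were called higher and 2.08% lower and no member was called. The adjusted p of this averaged difference was 0.0111 without a filter on low counts and 0.029 in the block with swapped numbers. It stayed above the threshold in the other alternatives that kept all libraries. These gave 0.0676 with a stricter filter, 0.0765 with RLE scaling, 0.101 with only the groups compared, 0.109 in the block with the numbers as given and 0.11 with DESeq2. Without chromosomes 1, 6, 8, 14 and Y it was 0.0898. With single libraries left out, the log2 difference ran from 0.70 to 1.17. The ES cell marker sum was 51.2 to 61.0 CPM in wild type and 63.4 to 131 CPM in null cultures at day 8, and 43.3 to 57.6 and 30.9 to 71.3 CPM at day 14. The germ cell marker sum was 2.00 to 3.67 CPM in wild type and 27.8 to 92.1 CPM in null cultures over both days, and the part of either in the Cbx7 values was not tested.

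Phc1 had a log2 difference of 0.39 (SE 0.20, adjusted p = 0.423) at day 8. Its difference at day 14 was 0.32 (SE 0.20, adjusted p = 0.577), and the average was 0.35 (SE 0.14, adjusted p = 0.196). Phc1 lies on chromosome 6, whose tested genes had a median difference of 0.22 at day 8 and 0.20 at day 14 in the same direction. Set against that median, the excess of Phc1 was 0.17 and 0.12. Chromosomes 1, 14 and 8 also had raised medians, of 0.42, 0.365 and 0.15 at day 8 and 0.41, 0.371 and 0.10 at day 14. Those of the other chromosomes ran from -0.097 to 0.012 at day 8. The part of these shifts in the shares of all genes called was not tested. The remaining 7 members had differences between -0.38 and 0.73 at day 8, while at day 14 they lay between -0.31 and 0.22, with SE of 0.21 to 0.70. Pcgf2, with the smallest SE of these, had 0.00 (SE 0.22) at day 8, or -0.01 with RLE scaling, and -0.07 (SE 0.21) at day 14. A missed threshold does not show equal levels.

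**Figure D4:**
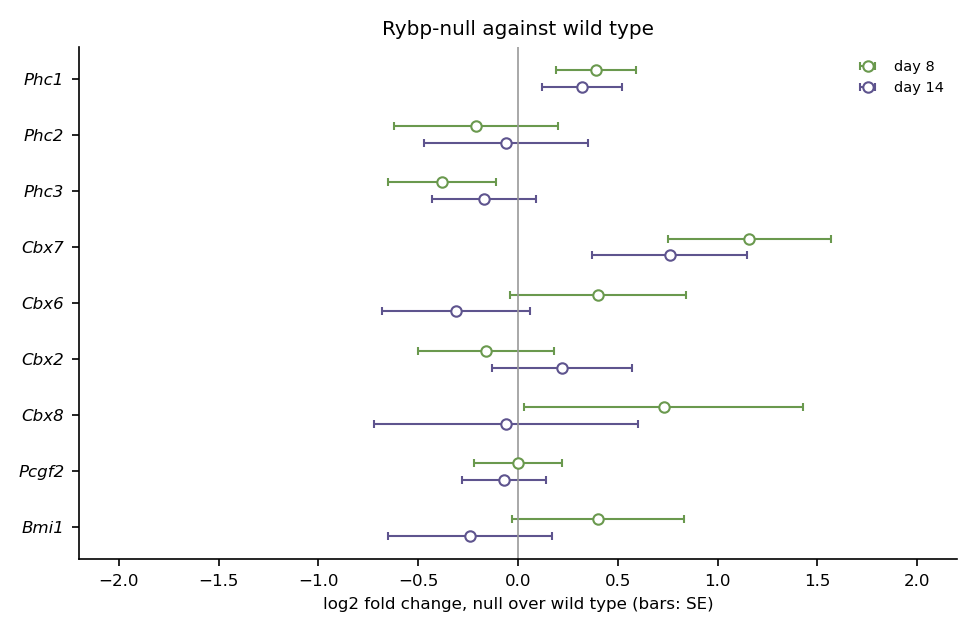
Log2 fold change of Rybp-null against wild type cultures (horizontal axis) for each canonical PRC1 gene at day 8 (green) and day 14 (purple), with bars for the SE implied by the test. All points are open because none had an adjusted p under 0.05. Cbx7 lies farthest from 0 at both days, at 1.16 and 0.76.

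The genotype difference was not shown to change with day for any member. In the test of the difference at day 14 against that at day 8, 0 members and 0 of 15819 genes were called by edgeR (0.0% higher and 0.0% lower), 962 genes had an unadjusted p under 0.05, and DESeq2 called 4 genes. The values of the members ran from -0.78 (SE 0.96, Cbx8) to 0.38 (SE 0.49, Cbx2), and none of the 9 had an unadjusted p under 0.05. In the test of whether the change from day 0 to day 8 differed by genotype, no member was called, beside 0.019% of genes called higher and 0.0126% lower. Phc2 alone had an unadjusted p under 0.05 there.

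The partners of these subunits give their surroundings. Of the RING1 ligases, which carry out the ubiquitination of histone H2A, Rnf2 (RING1B) fell by day 8 in wild type by 0.68 (SE 0.23, adjusted p = 0.0338) and in null cells by 0.90 (SE 0.23, adjusted p = 0.00782) on the log2 scale. Ring1 had 4 to 23 reads per library and passed no test. Of 4 other canonical subunits, these ligases included, 0 rose and 1 fell by day 8 in wild type, and 1 rose and 2 fell in null cells. There Scml2 fell by 2.55 (SE 0.52, adjusted p = 0.00229) and Scmh1 rose by 1.08 (SE 0.24, adjusted p = 0.00389). The median log2 fold change of the 4 was 0.46 in wild type and -0.05 in null cells. These counts, and those of the lists that follow, stand beside 21.2% of all genes that rose and 19.3% that fell in wild type, and 19.0% and 18.6% in null cells. Scml2 stood at 4.09 CPM in wild type and 35.0 CPM in null ES cells.

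PRC2 lays down the mark that chromobox proteins bind, and 8 of its 12 genes fell by day 8 in each genotype while none rose. The median log2 fold change of the 12 was -1.36 in wild type and -1.09 in null cells, beside 0.13 and 0.04 over all genes. Jarid2, which guides PRC2 to its targets, fell by 2.71 (SE 0.21) in wild type and 2.79 (SE 0.21) in null cells, and Epop, an ES cell subunit, by 4.84 (SE 0.67) and 3.41 (SE 0.59). Of 20 variant PRC1 genes, 6 rose and 7 fell by day 8 in wild type, led by Bcorl1 at 3.07 (SE 0.49) and Usp7 at -2.10 (SE 0.20), and 5 rose and 4 fell in null cells, led by Bcor at 2.14 (SE 0.31) and Bcorl1 at 2.07 (SE 0.38). The median over these 20 genes was -0.21 in wild type and -0.06 in null cells. Of 3 heterochromatin chromobox genes, Cbx1 alone fell, by 1.54 (SE 0.24) and 0.79 (SE 0.24). Among 7 genes that oppose Polycomb, 2 rose and 2 fell in each genotype. Kdm6b, a demethylase of the PRC2 mark, led in wild type at 2.38 (SE 0.26), followed by Asxl2 at -1.23 (SE 0.20), and Kdm6a at -0.96 (SE 0.27) and Kmt2d at 0.94 (SE 0.23) led in null cells.

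Cdkn2a, the senescence locus that BMI1 and CBX7 are known to repress, had 0 to 4 reads in ES cells and passed no test; at day 14 it had 22 reads in wild type and 21 in null cultures. Its neighbour Cdkn2b had 0 reads in null ES cells and rose there by day 8 (adjusted p = 0.0119). The lower limit of this ratio was 4.76 by the exact 95% counting interval. In null cultures it rose again by day 14 by 2.41 (SE 0.62). In wild type Cdkn2b was not called but went the same way, from 1 read to 19 by day 8, a ratio of 9.96 (95% counting interval 1.58 to 414). The wild type ratio of day 14 to day 8 was 2.12 (1.21 to 3.85). Cdkn1a, another cell cycle inhibitor, rose by day 8 by 2.00 (SE 0.26) in wild type and 0.83 (SE 0.24) in null cells and by day 14 by 0.91 (SE 0.18) and 1.21 (SE 0.19). From day 8 to day 14 Pcgf5 fell in wild type by 1.33 (SE 0.31), and Ezh2 by 0.90 (SE 0.19) and Cbx5 by 0.69 (SE 0.18) in null cultures. Of all genes, 1.57% fell in wild type and 3.41% in null cultures. In the other genotype the changes were -0.85 (SE 0.30) for Pcgf5, -0.38 (SE 0.19) for Ezh2 and -0.51 (SE 0.18) for Cbx5, none called. A difference between genotypes in these changes was not shown (adjusted p = 0.95, 0.856 and 0.972, edgeR). Between genotypes, Rybp aside, the called gene of these lists at day 8 was Bcor, a partner of PCGF1, at 1.11 (SE 0.23, adjusted p = 0.0379), and there was none at day 14. In the averaged contrast, added after values had been seen, Bcor at 0.89, Aebp2 at 0.47 and Epop at 2.35 were called higher. Scmh1 at -0.52 and Cdkn1a at -0.59 were called lower. These lists held 20 variant PRC1, 12 PRC2, 4 other canonical and 3 senescence genes. They also held 3 heterochromatin chromobox and 7 Polycomb-opposing genes, of which 0 were called in these contrasts. Of all genes, 0.506% were called higher and 0.759% lower at day 8, and 2.33% higher and 2.08% lower in the averaged contrast.

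Genes with the course most like that of a called member were sought by Pearson's r of log2 CPM over the 10 libraries, among 6753 or 6754 genes with a mean of at least 20 CPM. Closest to Phc1 were an unnamed gene (ENSMUSG00000078499), Prps1 and Gm5844, with r of 0.9959, 0.9928 and 0.9902. Closest to Cbx7 were Fam208a, L1td1 and Eif1a, with r of 0.9895, 0.9864 and 0.983. Closest to Cbx6 were Ahr, Aldh1a1 and Plekhh2, with r of 0.9672, 0.9619 and 0.9448. The nearest gene was Snx1 for Phc2 (0.9903), Plcg1 for Cbx2 (0.9711), Mtss1l for Cbx8 (0.9655), Shc1 for Bmi1 (0.904) and Sars for Pcgf2 (0.9005). These points share libraries, depth and the gap between day 0 and the later days, which many genes follow, so the values are a description.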

How the data were processed

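RNA-seq read counts per Ensembl gene were deposited by the authors as whole numbers, not normalized. TopHat, HTSeq, DESeq and mm9 are named, without versions or roles, in the submitters' processing notes; strand and annotation settings are absent from every source used here, so overlapping or antisense genes cannot be told apart. Groups came from the sample titles.

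The counts were tested with edgeR 4.0.16 (R 4.3.3): filterByExpr with a minimum count of 10, TMM, robust quasi-likelihood fit of all 10 libraries in 6 genotype-by-day groups (4 residual degrees of freedom, common biological coefficient of variation 0.214), two-sided, Benjamini-Hochberg over 15819 genes within a comparison, called at an adjusted p under 0.05. Each SE is the one implied by the test. Single day 0 libraries were assumed to vary like the others. The fit was first tested on simulated counts with known changes.

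Symbols, matched for 30946 IDs, and exon lengths came from GENCODE vM21 (GRCm38). Counting intervals are exact, at 95%, with a floor of 3 counts over the group, and cover counting error only. Alternatives were DESeq2 1.42.0, RLE scaling, other filters, a replicate block, fewer groups or chromosomes and each library of days 8 and 14 left out; day 0 has a single library per genotype, so every change from day 0 rests on it.

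The members and lists were chosen with earlier results of these data known. All members are named. Other listed genes are named where called between genotypes, or among the 2 largest called changes of their list per day comparison; Ring1, Rnf2 and Cdkn2a always are. A gene of the lists is not reported here and enters no share, sum or list count. Replicates differed by more than counting noise (chi-square per degree of freedom 3.3 to 15.25).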

Additional observations from a re-analysis of the deposited data

How the results depend on the processing

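The falls of Cbx7 and Phc1 by day 8 in both genotypes, and the rise of Phc2 in wild type, kept their direction and call in each of the 16 alternatives run (15 for Phc1, which lies on a left-out chromosome), none of which left out a day 0 library. Calls of Cbx2, Cbx6, Cbx8, Pcgf2 and Bmi1 did not. Counts of members called moved as follows. By day 8 there were 2 in null cells with DESeq2, beside 4, and leaving out single libraries gave 3 to 5 in wild type and 2 to 4 in null cells. From day 8 to day 14 there were 2 in wild type with only the groups compared, and 2 in null cultures with crossed numbers (a replicate block with the numbers of day 14 swapped, chosen after seeing the data), beside 1, and single libraries gave 0 to 1 in each. For the averaged genotype difference there was 1 without a filter and 1 with crossed numbers, beside 0, and single libraries gave 0 to 1.

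Counts over all genes moved more, and the cause was not tested. Between genotypes at day 8, 200 genes were called, against 708 without a filter, 130 with a replicate block, 473 with crossed numbers, 100 without chromosomes 1, 6, 8, 14 and Y (fewer genes tested), 120 with only the groups compared, and 28 (without wild type replicate 1 of day 8) to 324 (without null replicate 2 of day 8) with a library left out. At day 14 the count was 97, against 637, 354 (crossed), 55 (chromosomes), 198 (DESeq2) and 14 to 301 (without wild type replicate 2 of day 14, and null replicate 1 of day 8). For the genotype difference at day 14 against day 8 it was 0, against 65, 6 (crossed), 4 (DESeq2) and 0 to 2. For the difference in the change to day 8 it was 5, against 273, 0 (replicate block), 112 (crossed), 1 (chromosomes), 17 (groups compared), 86 (DESeq2) and 0 to 46. From day 8 to day 14 it was 639 in wild type, against 1244, 1033 (crossed), 1851 (groups compared) and 108 to 935, and 1217 in null cultures, against 1892, 555 (groups compared) and 613 to 1243. For the averaged difference it was 697, against 1396, 1189 (crossed), 279 (chromosomes) and 183 to 1050.

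Uncalled members changed sign, Cbx8 also from values away from 0 (0.73 at day 8 between genotypes, -0.78 for its change between days and 0.75 from day 8 to day 14 in wild type). Pcgf2 at day 8 between genotypes was 0.00, against -0.01 (RLE and DESeq2), -0.0 (stricter filter) and -0.02 (replicate block). Phc2 from day 8 to day 14 in wild type was 0.01, against -0.01 (replicate block and DESeq2) and -0.07 (crossed), and Cbx8 in null cultures was 0.03 (crossed), beside -0.03. With single libraries left out, the log2 genotype difference at day 8 ran from -0.39 to 0.12 for Cbx2, -0.36 to 1.65 for Cbx8, -0.76 to 0.17 for Phc2 and -0.29 to 0.23 for Pcgf2. At day 14 it ran from -0.85 to 0.08 for Cbx6, -0.53 to 0.71 for Cbx8, -0.49 to 0.58 for Phc2, -0.24 to 0.09 for Pcgf2 and -1.04 to 0.26 for Bmi1. Its change between these days ran from -0.94 to 0.01 for Cbx7, -1.71 to 0.30 for Cbx8, -0.34 to 0.15 for Phc1, -0.28 to 0.79 for Phc2 and -0.30 to 0.22 for Pcgf2. The log2 change from day 0 to day 8 ran from -0.28 to 0.05 for Bmi1 in wild type and -0.21 to 0.43 for Cbx6 in null cells. That from day 8 to day 14 ran from -0.51 to 0.01 for Cbx2, -0.01 to 1.68 for Cbx8 and -0.63 to 0.44 for Phc2 in wild type. In null cultures it ran from -0.49 to 0.46 for Cbx7, -0.61 to 1.05 for Cbx8, -0.22 to 0.70 for Phc2, -0.10 to 0.41 for Pcgf2 and -0.47 to 0.83 for Bmi1.

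The replicate numbers were shared by groups, but their differences correlated at 0.142 (day 8) and 0.279 (day 14) between genotypes and at -0.068, -0.104, -0.155 and -0.415 between days, so the numbers as given do not pair the libraries across days. With the numbers of day 14 swapped all 6 would be positive. The replicate block with the numbers as given changed no call of a member; the swapped block added Cbx7 in the averaged genotype difference and Phc1 from day 8 to day 14 in null cultures. Depth limits Cbx8, Bmi1, Phc2 and Cbx2, with 0 to 87 reads per library. It also limits Cbx7 after day 0, with 16 to 56 reads, and Cbx6 at days 0 and 8, with 18 to 57.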
